A study of Mus musculus with 2 samples.

Results

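Ubiquitin is a small protein that cells attach to other proteins to mark them for destruction, relocation or assembly. An E1 enzyme activates it, an E2 conjugating enzyme carries it and, with an E3 ligase, passes it to the target, and deubiquitinating proteases take it off again. Most E2 enzymes have symbols that begin with Ube2, and the ubiquitin-specific proteases, the most numerous deubiquitinase family, have symbols of Usp and a number. In lymphocytes the pathway is known for its part in cell division, NF-kappaB signalling and the DNA damage response.

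The genes described here are those listed beside a Sox4 peak whose symbol begins with Ube2, or with Usp followed by a digit. They number 66 of 11207 listed gene symbols, 26 Ube2 and 40 Usp. The symbol alone chose them, and a peak counted as a promoter peak when its interval lay within 5 kb of a transcription start site (TSS) of the gene. Symbol is not function: Ube2cbp is named for a protein that binds an E2, and Usp6nl encodes a GTPase-activating protein.

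The study profiled the HMG-box transcription factor Sox4 in C57BL/6 mouse progenitor B cells from fetal liver. The cells had received retroviruses for BirA, the p190 Bcr-Abl oncogene, SE-Cre and BAP-Sox4, one after another, with a sort after each. BirA biotinylates the BAP tag, and chromatin was pulled down with streptavidin (the Sox4 bioChIP library, 1 sample, whose antibody label reads SOX4), and input chromatin of the same cells formed the other group (1 sample, not analysed here). All of the chromatin thus came from Bcr-Abl-immortalized cells with introduced Sox4, and what is seen may not hold for normal progenitors. With 1 library there was no replicate check and no test between conditions, and peaks are intervals called from pulled-down DNA, which alone do not establish Sox4 binding. Of 10 progenitor B marker genes 7 had a promoter peak, against 0 of 4 hepatocyte and 0 of 4 erythroid markers and 32.8% of all protein-coding genes. A peak covered the start of only 3 of the 10, a share of 30.0% beside 28.4% of all genes. The other progenitor B markers with a promoter peak had it beside the start. Such peaks are not a measure of expression.

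Sox4 peaks lay at the starts of most members of both families. The mouse gene table holds 37 protein-coding Ube2 genes and 55 Usp genes on chromosomes 1 to 19 and X. Of the 37 Ube2 genes, 24 had a promoter peak (64.9%, exact 95% interval 47.5 to 79.8%). Of the 55 Usp genes, 32 had one (58.2%, 44.1 to 71.3%). Among all 20953 protein-coding genes the share was 32.8%, which is the background for both counts. Intervals cover counting error only. The Ube2 share was 6.68 percentage points above the Usp share, with a 95% interval of the difference (Newcombe) from -13.4 to 25.4 points. The families were therefore not distinguishable in how often they were marked, and the interval leaves room for a difference in either direction.

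Peaks sat on the start itself in nearly all of these genes. A peak covered the TSS in 23 of the 24 Ube2 genes and 29 of the 32 Usp genes with a promoter peak. Among all protein-coding genes it did so in 5955 of the 6875 with a promoter peak, so this was not particular to the families. Counted over all genes, with or without a peak, the shares were 62.2% of Ube2, 52.7% of Usp and 28.4% of all protein-coding genes. Being listed for any peak was less selective: 70.3% of Ube2 genes and 72.7% of Usp genes were listed, against 48.9% of all genes. A promoter peak with a fold of 10 or more was found at 2 Ube2 genes, Ube2cbp among them, and at 2 Usp genes, Usp22 and Usp3. Of all genes, 1.48% had a promoter peak that strong. Fold here is the peak caller's ratio of tags in a peak to the background it expected, and the score that ranks peaks is taken to be minus 10 log10 p.

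The sequences before the starts of some marked members are shown, with those of some members without a peak. They are examples, chosen in part by which windows were available, and do not compare strongly marked with unmarked starts. RefSeq promoter windows (build GRCm38.p6) were matched by gene ID for 72 of the 92 genes, and the 250 bases before the start are printed, 5′ to 3′. The deposited peaks are on mm9, and the coordinates below belong to the other build. A window was taken to lie at a marked start when its distance to the far end of the gene fell within the span of the peak's deposited distance to that end, which held for 34 of 52 windows of promoter-peak members. Capitals mark matches on either strand to 5 motifs: AACAAT and AACAAAG (cores read by HMG-box proteins, which share their first bases), CCGGAAG (ETS type), CCAAT (the CCAAT box) and GGGCGG (the GC box). The first 4 are, in each family, the highest-scoring members with a single window at the marked start.

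Ube2q1 (chr3:89773359-89773608, + strand): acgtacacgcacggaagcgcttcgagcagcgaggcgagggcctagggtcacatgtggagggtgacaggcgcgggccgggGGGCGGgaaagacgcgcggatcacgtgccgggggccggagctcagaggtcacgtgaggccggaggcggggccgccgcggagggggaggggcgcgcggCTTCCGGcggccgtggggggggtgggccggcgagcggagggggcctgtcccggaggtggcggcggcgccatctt

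Ube2cbp (chr9:86464917-86465166, - strand): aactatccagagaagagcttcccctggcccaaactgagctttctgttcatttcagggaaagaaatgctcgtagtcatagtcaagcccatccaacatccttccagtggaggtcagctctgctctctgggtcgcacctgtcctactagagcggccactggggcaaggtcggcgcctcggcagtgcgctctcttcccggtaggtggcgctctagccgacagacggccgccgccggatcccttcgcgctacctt

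Usp4 (chr9:108347581-108347830, + strand): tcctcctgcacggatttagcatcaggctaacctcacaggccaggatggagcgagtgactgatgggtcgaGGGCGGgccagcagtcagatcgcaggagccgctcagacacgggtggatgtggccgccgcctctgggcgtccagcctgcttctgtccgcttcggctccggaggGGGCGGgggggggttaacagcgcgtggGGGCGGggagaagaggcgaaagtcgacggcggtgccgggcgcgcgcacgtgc

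Usp12 (chr5:146794957-146795206, - strand): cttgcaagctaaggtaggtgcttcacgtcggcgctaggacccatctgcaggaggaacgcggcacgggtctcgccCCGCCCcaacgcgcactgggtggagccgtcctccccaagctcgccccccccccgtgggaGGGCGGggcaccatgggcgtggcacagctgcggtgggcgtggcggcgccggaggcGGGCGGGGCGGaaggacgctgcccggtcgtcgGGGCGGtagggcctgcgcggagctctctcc

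Ube2b is shown because 1 of its 2 windows was the only window at a marked start of a member that held an HMG-box core. Ube2c and Usp17la, chosen after their letters were seen, had no listed peak.

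Ube2b (chr11:52000787-52001036, - strand): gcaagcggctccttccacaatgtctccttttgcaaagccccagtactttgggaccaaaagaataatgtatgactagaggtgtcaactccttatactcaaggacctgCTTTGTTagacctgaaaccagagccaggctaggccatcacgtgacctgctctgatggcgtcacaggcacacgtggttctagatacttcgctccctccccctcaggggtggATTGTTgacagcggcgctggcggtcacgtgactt

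Ube2c (chr2:164769679-164769928, + strand): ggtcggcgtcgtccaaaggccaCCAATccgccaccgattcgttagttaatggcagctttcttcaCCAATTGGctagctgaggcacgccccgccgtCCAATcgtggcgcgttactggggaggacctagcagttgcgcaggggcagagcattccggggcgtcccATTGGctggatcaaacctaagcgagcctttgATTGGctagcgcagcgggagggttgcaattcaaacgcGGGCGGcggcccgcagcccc

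Usp17la (chr7:104856766-104857015, + strand): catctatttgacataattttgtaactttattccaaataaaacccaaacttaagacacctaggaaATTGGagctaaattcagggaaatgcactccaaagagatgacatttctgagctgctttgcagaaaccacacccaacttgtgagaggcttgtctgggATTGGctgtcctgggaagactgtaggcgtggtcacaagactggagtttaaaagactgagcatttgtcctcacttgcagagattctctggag

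The first 4 windows had more CpG than the median window and no HMG-box core, and their GC boxes ranged from none to several. Those of Usp3 and Usp22, the highest-scoring members, are not shown. The 4 windows carried 36 CpG dinucleotides in Ube2q1, 26 in Usp4, 30 in Usp12 and 16 in Ube2cbp, where the median of 20418 windows of protein-coding genes was 10. The GC box occurred 3 times in Usp4, 5 times in Usp12 and once in Ube2q1. Ube2q1 also held an ETS-type match, and Ube2cbp held none of the 5 motifs. The printed Ube2b window had 9 CpG, 1 match to AACAAT and 1 to AACAAAG. The other Ube2b window, also at the marked start by the distance check, had 33 CpG and no HMG-box core. It held 1 ETS-type match and 2 GC boxes. The window of Usp17la, one of several near-identical copies, had 1 CpG. Ube2c, in contrast, had 23 CpG, 6 CCAAT matches and a GC box, so a CpG-rich start without a peak also occurred. Among all windows, AACAAT was found in 8.0%, AACAAAG in 4.32%, CCGGAAG in 9.27%, CCAAT in 35.6% and GGGCGG in 44.1%. Either HMG-box core was found in 11.8% of them and in 2 of 52 windows of promoter-peak members, those of Ube2b and Usp10, and the Usp10 window failed the distance check. A comparison of the families by base content was void because only 75% of the promoter-peak members had a window. A letter match is a description of the reference and not a binding site, and a window of this length does not cover a whole peak.

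Among E2 enzymes for ubiquitin-like proteins, those that attach NEDD8 were marked. Ube2m had 109 tags at a fold of 5.14 and Ube2f had 62 tags at a fold of 4.65. Ube2l6, the E2 for the interferon-induced modifier ISG15, had no promoter peak.

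Ube2m lies in a crowded stretch of chromosome 7 and was listed for 4 peaks. Besides the one over its start, a peak with 40 tags (fold 3.79) lay 2627 bp downstream of a listed start, just past the gene's end, and had Chmp2a as its closest gene. Another, 12219 bp from the start, had 608 tags with fold 40.05 and score 3068.6, and covered the promoter of Trim28. That peak was the strongest one listed for any member, and it was a neighbour's.

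Among the E2 enzymes that act with many ligases, Ube2d1, Ube2d2a and Ube2d3 each had a peak over the start. Their tags were 86, 59 and 189, and their folds 5.21, 6.06 and 5.24. Ube2d3 thus had the most tags but not the highest fold. Its peak was 1920 bp wide against 716 bp for Ube2d2a, and it also covered the start of 4930539J05Rik. Ube2l3, which works with RING-between-RING ligases, had a weak peak (59 tags, fold 4.27, score 63.2), and a stronger one 6924 bp upstream (88 tags, fold 5.56) had Rimbp3 as its closest gene. The copies Ube2d2b, Ube2dnl1 and Ube2dnl2 had no listed peak. Whether reads could be told apart between such copies was not tested.

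The 3 Ube2e genes, which encode closely related E2 enzymes, differed from one another. Ube2e3 had a peak over its start on chromosome 2 (78708465 to 78710122) with 215 tags (exact Poisson 95% interval 187.2 to 245.7), fold 8.41 and score 532.7. A further peak, 2824 bp inside the gene and in an exon by the deposited class, held 67 tags at a fold of 5.69. Ube2e1 was listed only for a peak at the Rpl15 promoter 60148 bp from its start, and Ube2e2 for none.

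Ube2n encodes the E2 that builds the K63-linked chains of NF-kappaB and DNA damage signalling together with the enzymatically inactive partners encoded by Ube2v1 and Ube2v2. Ube2n had 154 tags (130.6 to 180.3) at a fold of 5.49. Ube2v1 had 101 tags (82.3 to 122.7) at a fold of 3.17, the lowest fold of the Ube2 promoter peaks. Ube2v2 had no listed peak. Among the E2 genes of DNA repair, Ube2b, one of the RAD6 E2 enzymes of damage tolerance, had 101 tags at a fold of 6.32, and a peak 3428 bp upstream with 65 tags (fold 5.05) was closest to Cdkl3. The other RAD6 gene, Ube2a on chromosome X, and Ube2t, the E2 of the Fanconi anaemia pathway, had no listed peak. The E2 enzymes of the anaphase-promoting complex were also unlike each other, since Ube2s had a weak peak (50 tags, fold 3.84, score 73.8) and Ube2c none.

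All 4 genes of the Ube2g and Ube2j kinds had a promoter peak, beside 64.9% of all Ube2 genes and 32.8% of all protein-coding genes. This group was put together with the values known, and its count supports nothing beyond these genes. Ube2g2, Ube2j1 and Ube2j2 are known from protein quality control at the endoplasmic reticulum. Ube2g1 had 229 tags over 2223 bp, the widest promoter peak of the family, at a fold of 4.94. Ube2j2 had 81 tags over 846 bp at a fold of 8.12. In this pair the broader peak had more tags and the lower fold. That did not hold for every pair of members, and Usp4 against Usp15 was an exception. Ube2j1 (96 tags, fold 3.68) shared its peak with the start of 4933421O10Rik, and Ube2g2 was weak (67 tags, fold 3.48, score 62.8).

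The other E2 genes ranged from strong to weak peaks. Ube2q1 had 192 tags (165.8 to 221.2), fold 7.21 and score 582.5 on chromosome 3 (89576369 to 89578106). Its relative Ube2q2 had 41 tags (29.4 to 55.6), fold 4.48 and score 54.4, the lowest of all promoter-peak members, in a peak that began 316 bp inside the gene. Ube2r2, an E2 of SCF ligases, had 134 tags at a fold of 6.93. Its relative Cdc34, which falls outside the symbol rule, had 72 tags at a fold of 4.39. Ube2w, which modifies protein N-termini, had 94 tags at a fold of 7.13, and Ube2z, which is loaded by Uba6, had 97 at 6.03. Ube2k followed with 118 tags (fold 5.10) and Ube2o, a hybrid of E2 and E3, with 66 (fold 3.73). Ube2h, Ube2u and Ube2ql1 had no listed peak. Among symbols beginning with Ube2, Ube2cbp had the promoter peak with the highest fold, 14.6, and a score of 471.5. It held 126 tags (105.0 to 150) over 999 bp on chromosome 9 (86357837 to 86358836). A weaker peak 1942 bp upstream (56 tags, fold 5.24) had Dopey1 as its closest gene, and another lay 137038 bp inside Ube2cbp in an intron (61 tags, fold 7.17).

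**Figure D1:**
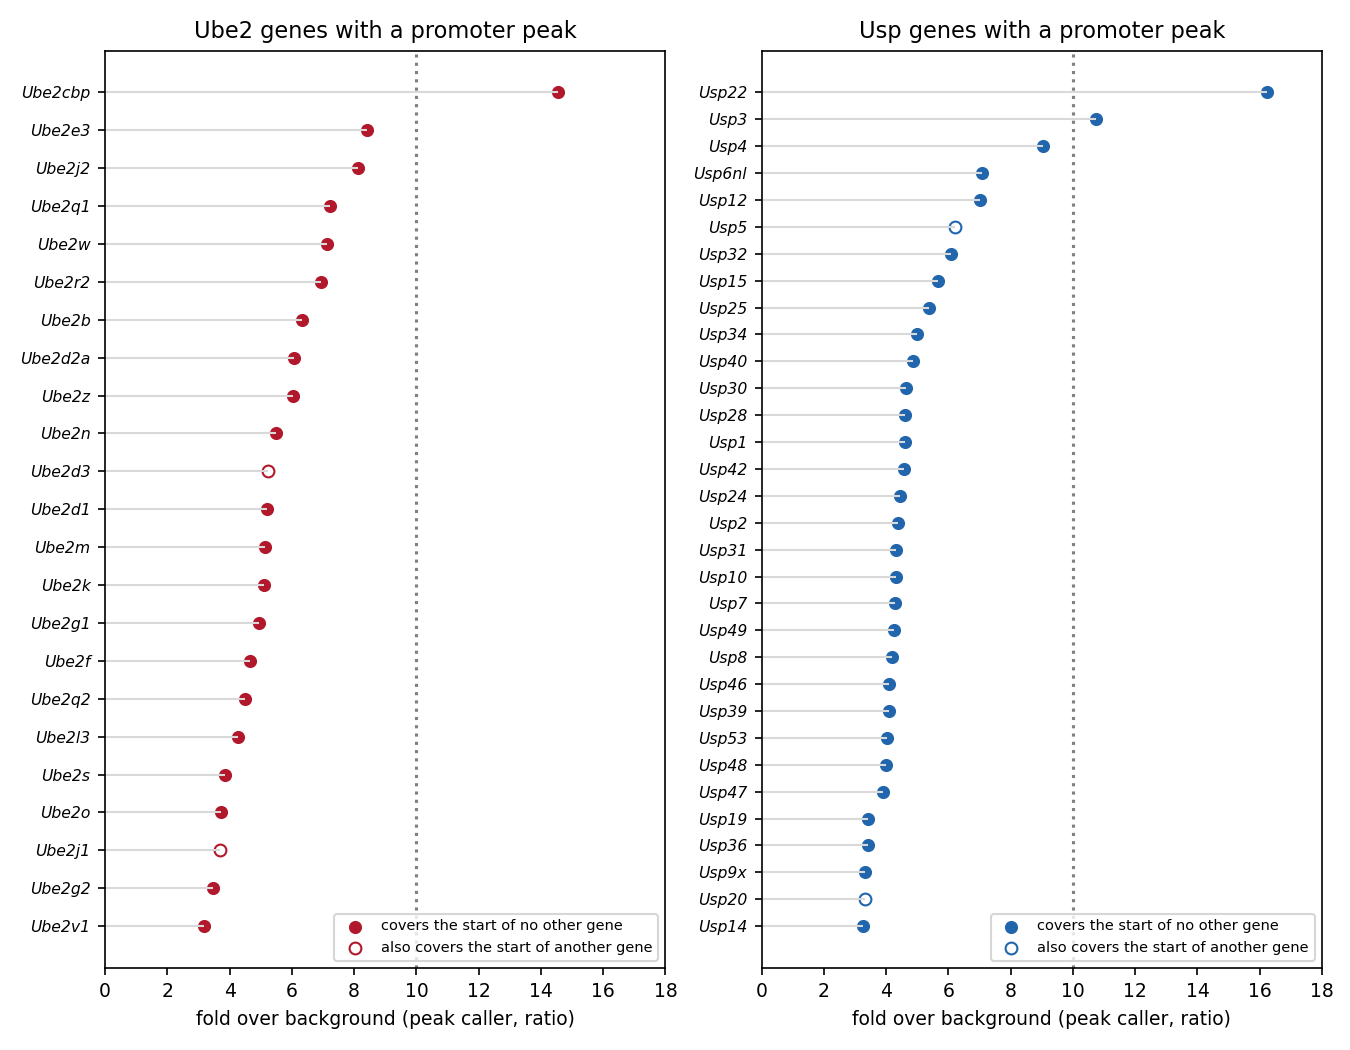
Fold over background (x axis, ratio) of the highest-scoring promoter peak of each Ube2 gene (left, 23 of the 24 genes) and Usp gene (right, 32 genes), with 1 point per gene and a dotted line at 10. Open points are peaks that also cover the start of another gene. Of the genes shown, Ube2cbp, Usp22 and Usp3 pass the line, and most Usp genes lie between 3.25 and 5.0.

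Proteases with histone substrates held the strongest Usp peaks and also many unmarked genes. Usp3, which removes ubiquitin from histone H2A, had a peak on chromosome 9 (66439427 to 66441508) with 321 tags (286.8 to 358.1) and fold 10.8. Its score, 1222, was the highest of the promoter peaks of either family. Usp22, the H2B protease of the SAGA coactivator complex, had 229 tags (200.3 to 260.7), fold 16.2 and score 1022.9 on chromosome 11 (60987776 to 60989115). Usp3 had more tags and the higher score, and Usp22 the higher fold in a narrower peak (1339 against 2081 bp). Usp49 had a modest peak 601 bp upstream of its start (61 tags, fold 4.24). Usp16 and Usp21 were listed only for peaks of neighbours, and Usp44, Usp27x and Usp51 for none, so 3 of the 8 genes had a promoter peak, a share near the 32.8% of all protein-coding genes. Usp27x and Usp51, on chromosome X, encode relatives of Usp22 that can bind the same SAGA subunits. The genes for those subunits, Atxn7l3 and Eny2, both had a peak over the start (folds 4.74 and 4.21, 197 and 103 tags).

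All 5 genes grouped under genome maintenance and p53 had a promoter peak, at folds of 3.91 to 4.62, where 32.8% of all protein-coding genes had one. The group was drawn up with the values known, and its count supports nothing beyond these genes. Usp1, which acts on the Fanconi protein FANCD2 and on PCNA, had 137 tags (115.0 to 162.0) and a score of 281.1. Usp10, which acts on p53, had 98 tags (fold 4.30), and Usp28 had 72 (fold 4.62). Usp7, which acts on Mdm2 and p53, was the only Usp gene with more than 1 promoter peak: 71 tags (fold 4.29) over its start and 48 tags (fold 3.96) 275 bp upstream. Usp47, linked to base excision repair, had 54 tags (fold 3.91). These folds lay around the median of all promoter-peak genes, 4.51.

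Genes for related proteases were marked unequally in several cases. Usp4 had 176 tags (151.0 to 204.0) at a fold of 9.03, its relative Usp15 had 86 (68.8 to 106.2) at 5.66, and their relative Usp11, on chromosome X, had no listed peak. Usp12 had 109 tags (89.5 to 131.5) at a fold of 7.01, and Usp46 had 69 (53.7 to 87.3) at 4.09. The intervals of the tag numbers of Usp12 and Usp46 did not overlap, nor did those of Usp4 and Usp15. These pairs were picked with their values known. Tags of all 6875 promoter-peak genes had quartiles of 59.0 and 110.0. How often the intervals of any pair of them part was not counted, so unequal tags are not shown to be particular to these pairs. The peaks of Usp4 and Usp12 were also wider (1512 and 1115 bp) than those of Usp15 and Usp46 (1041 and 1013 bp). Usp12, Usp46 and Usp1 proteins all use the cofactor Wdr48, whose gene also had a promoter peak (83 tags, fold 3.84). Usp5, the protease of free ubiquitin chains, had 145 tags at a fold of 6.21 in a peak that also covered the start of the cell cycle gene Cdca3. Its relative Usp13 had no listed peak. Usp14, the protease of the proteasome's regulatory particle, had 66 tags at a fold of 3.25, the lowest fold of the Usp promoter peaks.

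Of the 6 membrane and organelle proteases, 5 had a promoter peak, beside the same 32.8% of all protein-coding genes. All the role groups were drawn up with the values known. Usp32 had the highest score and fold of them (88 tags, fold 6.08, score 204.3). The mitochondrial protease gene Usp30 had 76 tags (fold 4.63, score 125.0), and the endosomal protease gene Usp8 had 45 (fold 4.19, score 64.2). Usp20 had 70 tags (fold 3.33, score 84.4) in a peak shared with the start of BC005624. Usp19, which encodes a protease anchored in the endoplasmic reticulum, had 60 tags (fold 3.41) in a peak 1373 bp upstream, the farthest from its start of those counted as a member's highest-scoring promoter peak. Usp33, the relative of Usp20, was listed only for a peak at the Zzz3 promoter 49060 bp from its start. Usp18, which takes ISG15 off proteins, had no promoter peak either, like Ube2l6, the E2 for ISG15. Of all 20953 protein-coding genes 14078 had none, so nothing particular to the ISG15 genes is shown.

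Of the remaining Usp genes, Usp6nl was the strongest, with 155 tags (131.6 to 181.4), fold 7.08 and score 445.8. The splicing factor gene Usp39 had 61 tags at a fold of 4.09. A further 11 genes (Usp2, Usp9x, Usp24, Usp25, Usp31, Usp34, Usp36, Usp40, Usp42, Usp48 and Usp53) had promoter peaks at folds of 3.33 to 5.38 and scores of 55.2 to 177.6. The highest score among them was that of Usp42 (109 tags, fold 4.56) and the lowest that of Usp9x. Usp26, Usp29, Usp38, Usp43 and Usp50 had no listed peak, nor had any of the 5 Usp17l copies.

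**Figure D2:**
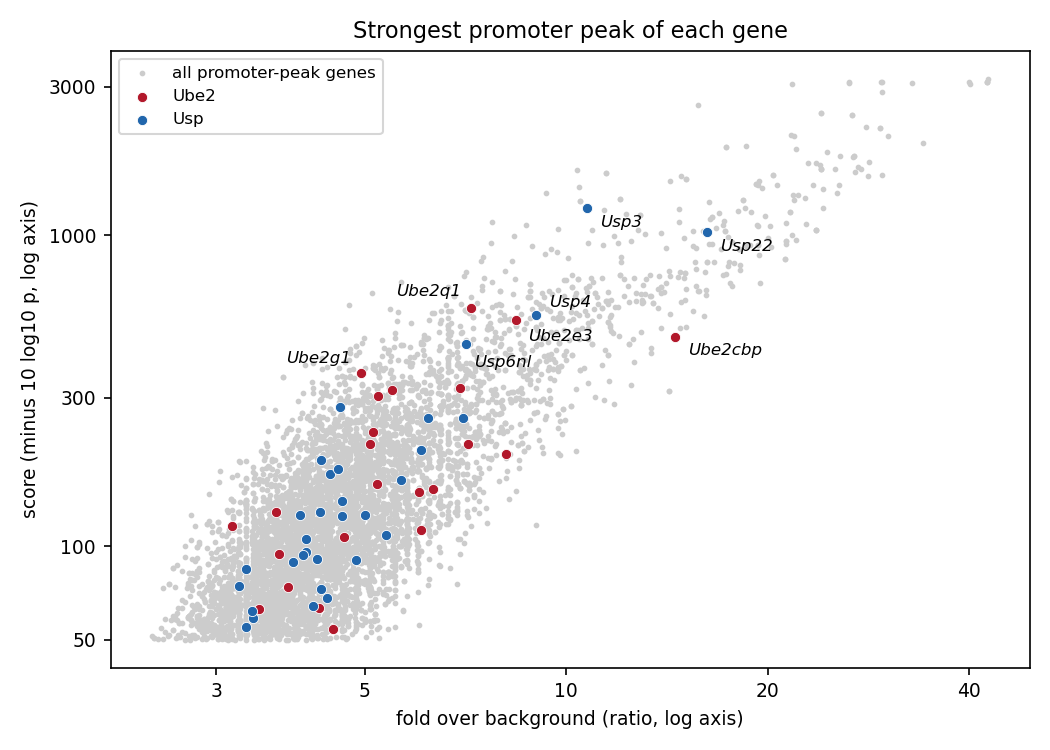
Score (y axis, minus 10 log10 p, log axis) against fold over background (x axis, log axis) for the highest-scoring promoter peak of each gene, with all 6875 promoter-peak genes in grey, Ube2 genes in red and Usp genes in blue. One Ube2 gene is not marked, and the 4 highest-scoring of the others in each family are named, and the other members lie within the grey cloud.

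As a group, the Ube2 peaks were somewhat stronger than the Usp peaks, within wide intervals. The median score was 178.0 for the 24 Ube2 genes (order-statistic 95% interval 112.7 to 318.5) and 125.4 for the 32 Usp genes (90.4 to 177.6), beside 119.2 for all 6875 promoter-peak genes. The median fold was 5.22 for Ube2 (4.48 to 6.93), 4.42 for Usp (4.09 to 5.0) and 4.51 for all. The family intervals overlapped for both measures. Scores above the median of all promoter-peak genes were reached by 16 of 24 Ube2 and 17 of 32 Usp genes. Ube2 peaks were also wider (median 1141 bp, against 990.5 bp for Usp and 982 bp for all), and wider peaks collect more tags. Per kb of peak the median was 83.4 tags for Ube2, 78.0 for Usp and 78.1 for all. These are descriptions of genes of 1 library that had passed the peak caller's threshold, and no test was made.

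A stricter limit on the score gave a larger difference between the families, but no greater separation was shown. With peaks above the median score of the list (104.9), 19 Ube2 genes (51.4%, 34.4 to 68.1%) and 19 Usp genes (34.5%, 22.2 to 48.6%) had a promoter peak, where all genes gave 18.9%. The difference of 16.8 points had an interval from -3.52 to 35.7, which covers both 0 and the 6.68 points found with all peaks. At a fold of 10 or more the difference was 1.77 points. Promoter peaks numbering 2 or more were found at 4 Ube2 genes, Ube2b, Ube2cbp, Ube2e3 and Ube2m, and at 1 Usp gene, Usp7. Of all protein-coding genes 3.15% had as many. The second peaks of Ube2b, Ube2cbp and Ube2m had another gene as the closest.

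Some promoter peaks of members also covered the start of another gene. Such peaks stood for 3 of 24 Ube2 genes (12.5%) and 2 of 32 Usp genes (6.25%), against 18.4% of all promoter-peak genes. No intervals were computed for these small counts, so a difference from all promoter-peak genes is not shown. The shared peaks included those of Ube2d3, Ube2j1, Usp5 and Usp20, and in each of these the list named the partner as the closest gene.

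Beyond 5 kb, most peaks listed for the members had another gene as the closest. The same share was not counted over all listed genes, so this is not shown to be particular to the members. The members were listed in 107 pairs of a peak and a gene, 61 within 5 kb and 46 farther away. Of the 46, another gene was closest in 43, and 34 of these lay in the deposited promoter class of that gene. The 3 exceptions were a peak 6780 bp upstream of Ube2d1 (47 tags, fold 3.81), the intronic peak of Ube2cbp and a peak 1339 bp past the end of Usp40 (37 tags, fold 3.75). The 10 listed members with no promoter peak were Ube2e1, Ube2l6, Usp16, Usp18, Usp21, Usp33, Usp35, Usp37, Usp45 and Usp54, and each of their peaks had another gene as the closest. The strongest of these was the Usp33 peak at Zzz3, with 164 tags (fold 6.67, score 396.1). Usp54 followed with a peak 71466 bp downstream of its start (134 tags, fold 5.15) and one 22067 bp upstream at Myoz1 (97 tags, fold 3.72). The Ube2e1 peak at Rpl15 held 70 tags at a fold of 5.06, and the Ube2l6 peak, 27737 bp away at Timm10, held 53 at 4.26. The remaining genes were also listed for peaks near neighbours. Usp16 was nearest to a peak 14154 bp upstream at Rwdd2b (48 tags, fold 3.68), and Usp18 to one 19319 bp upstream at Tuba8 (49 tags, fold 3.73). Usp37 was listed for a peak 37253 bp downstream, at Rqcd1 (94 tags, fold 2.72), and Usp45 for one 71189 bp downstream, at Sfrs18 (65 tags, fold 3.96). A strong distant peak also lay 24279 bp upstream of Usp46 and had Snora26 as its closest gene (fold 11.0, score 421.7). Next to the 5 kb limit, the farthest peak inside was that of Ube2b at 3428 bp upstream, and the nearest outside were those of Usp35 at 5878 bp upstream (48 tags, fold 4.76) and Usp21 at 6063 bp downstream (61 tags, fold 3.19).

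**Figure D3:**
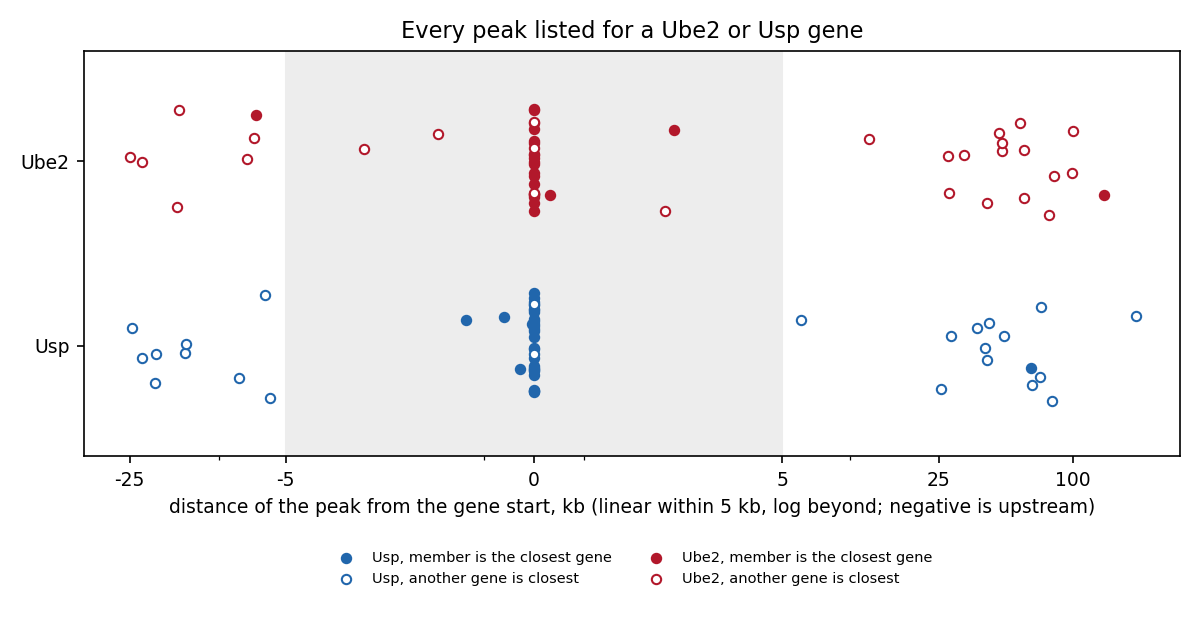
Distance of each of the 107 listed peaks from the start of the Ube2 or Usp gene (x axis, kb, linear within 5 kb and log beyond, negative upstream), spread vertically at random within each family. The grey band is the 5 kb promoter window. Filled points have the member as the closest gene, and outside the band 43 of 46 points are open.

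Few members on chromosome X had a promoter peak, and the members without one had the shorter median gene length. Of 3 Ube2 genes on X none had a promoter peak, and of 5 Usp genes on X only Usp9x had one (63 tags, fold 3.33, score 55.2). Of all 905 genes of chromosome X, 7.73% had a promoter peak. Without X, the shares were 24 of 34 Ube2 genes (70.6%, 52.5 to 84.9%) and 31 of 50 Usp genes (62.0%, 47.2 to 75.3%), against 33.9% of autosomal genes. The median gene length was 30.5 kb for Ube2 genes with a promoter peak and 11.6 kb for those without. For Usp genes it was 56.6 and 25 kb, and for all genes 24.1 and 15.0 kb. The part of gene length or chromosome in the family counts was not tested.

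The rest of the pathway, in lists drawn up from gene function, was marked to varying degrees. Among all protein-coding genes 32.8% had a promoter peak. The ubiquitin gene Ubb had a peak over the start (193 tags, fold 6.24), and Rps27a, which encodes ubiquitin fused to a ribosomal protein, had no listed peak. Of 10 E1 genes 4 had a promoter peak (40%, 12.2 to 73.8%), a share near that of all protein-coding genes. The strongest was that of the SUMO E1 gene Sae1 (95 tags, fold 6.02). Uba1, the main ubiquitin E1 gene, which lies on chromosome X, and Uba6 had no listed peak. Among deubiquitinases outside the Usp symbols, 22 of 29 genes had a promoter peak (75.9%, 56.5 to 89.7%). They included Mpnd (175 tags, fold 21.2), Otud4 (217 tags, fold 6.06), Bap1 (126 tags, fold 5.83) and Cyld (79 tags, fold 4.04). Of the E2-like genes without a Ube2 symbol, 7 of 8 had one, led by Birc6 (228 tags, fold 7.19).

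Downstream in the pathway, 14 of 15 HECT ligase genes (93.3%, 68.1 to 99.8%) and 7 of 10 genes of cullins and their RING partners (70.0%, 34.8 to 93.3%) had a promoter peak. The share of all protein-coding genes was again 32.8%. Nedd4 had 197 tags (fold 5.23), Cul1 had 157 (fold 5.18), and Wwp2 was the HECT gene without a promoter peak. Proteasome subunit genes had 27 of 46 (58.7%, 43.2 to 73.0%), with a median fold of 4.52. The intervals of these lists overlapped those of Ube2 and Usp, so the marking was not shown to be particular to either family.

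**Figure D4:**
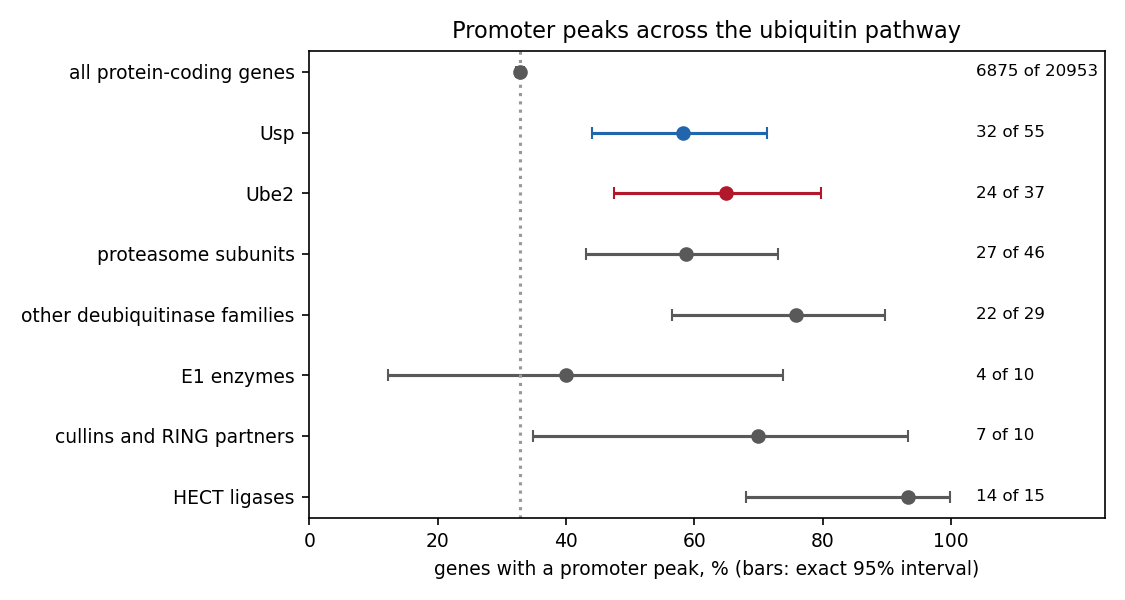
Share of genes with a promoter peak (x axis, %, points) with exact 95% intervals (bars) for the Ube2 and Usp families and other gene lists of the pathway, with counts at the right. The dotted line is the share of all protein-coding genes, 32.8%, and only the interval of the E1 enzymes reaches it.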

How the data were processed

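One library, the Sox4 bioChIP, had a peak list that was used here; the input library was not analysed. The tools named per the submitters' processing notes are MACS 1.4.2 and Bowtie 0.12.8, with build mm9; settings and the background library are not stated there. Per the file headers, each of the 8730 peaks carries a deposited tag count (reads in the peak, not normalized), a deposited fold (ratio to the caller's background) and a deposited score, read as minus 10 log10 p since the lowest is 50.0. Distances run from the peak interval to the TSS or the gene end (TES). The depth of the library is unknown, and the 763284 tags in peaks do not measure it. PCR duplicates are not separated, and intervals cover counting error only.

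Symbols were split from the list, and all 88 member transcripts matched the RefSeq gene table (GRCm38.p6), used for names, class, chromosome and length. Usp9y on chromosome Y was left out. A gene was represented by its highest-scoring promoter peak. Shares have exact Clopper-Pearson intervals, and gene assignment was tested on simulated data (Python 3.11.15, pandas 2.3.3, scipy 1.17.1). Named with values were, per family, the 10 highest scores, folds of 10 or more, members with several or shared peaks, those beyond 5 kb and those on chromosome X. Further members named, and the role groups, were chosen after their values were seen. The members and lists were chosen with earlier results of these data known. The values of a few genes of these families and lists are not reported here, though the counts and medians include them.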

Additional observations from a re-analysis of the deposited data

How the results depend on the processing

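The number of genes with a promoter peak depended mainly on how strong a peak had to be. With peaks of fold 10 or more, 2 Ube2 and 2 Usp genes were counted in place of 24 and 32, and with peaks above the median score 19 Usp genes were counted. The other settings (windows of 1 kb and 20 kb, a peak over the TSS, the closest gene only, and leaving out Ube2cbp and Usp6nl) gave 21 to 24 Ube2 and 29 to 36 Usp genes. The difference between the family shares turned from 6.68 to -0.59 points (Ube2 minus Usp) with the 20 kb window, where 24 Ube2 and 36 Usp genes were counted, and the cause was not tested. With the closest gene only it was 2.21 points. The median scores ran from 158.0 to 178.0 for Ube2 and 125.0 to 125.8 for Usp. The median folds ran from 5.21 to 5.22 and from 4.39 to 4.44. No paired analysis was possible because there is 1 library with peaks. Depth is unknown, so a gene without a peak may have had signal under the caller's threshold.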
